A study of Mus musculus with 2 samples.

Results

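Boundaries of chromatin domains that lie at promoters of protein-coding genes were described in olfactory sensory neurons of the mouse. A boundary was counted here when the midpoint of its 5 kb bin lay within 10 kb of the transcription start site (TSS) of a protein-coding gene, taken as the annotated upstream end of the gene. On the autosomes 1906 of 7169 boundaries met this rule, out of 7576 boundaries in the whole list (the 407 on the X chromosome were not used). The choice used positions alone and not the boundary score. The 1906 promoter boundaries carried the TSSs of 2444 genes, which is 11.7% of the 20807 autosomal protein-coding genes, and no TSS counted for more than 1 boundary, since neighbouring boundaries were at least 35 kb apart. The other 5263 autosomal boundaries comprised 1895 inside protein-coding genes, away from the TSS, and 3368 outside such genes.

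The cells were primary mature olfactory sensory neurons that express the odorant receptor gene Olfr17 (P2), sorted by fluorescence from the olfactory epithelium of adult P2-GFP mice of the strain 129P2/OlaHsd, with both sexes mixed and no treatment listed. In situ Hi-C joins stretches of DNA that are neighbours in the nucleus by ligation and sequences the joints. It was done after crosslinking in 1% formaldehyde and digestion with DpnII, on 2 biological replicates of 23000 and 20000 cells that form 1 group. The boundaries were called on the contacts of both replicates combined, so each boundary has 1 score and no replicate spread, and its depth in contacts is not known. Hi-C reads no expression, so the sort could not be checked against markers of the neurons or of other cells, and the genes are described by annotation and textbook function. The number of animals pooled is not stated, and the positions refer to the C57BL/6J reference.

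Domain boundaries are places across which the chromatin fibre makes few contacts. In mammals many coincide with sites where the zinc finger protein CTCF halts the extrusion of loops by cohesin, and the DNA motif of CTCF has a direction, which at many boundaries points into the adjoining domain. Active promoters, above all those of genes used in every cell, are also frequent near boundaries, as are genes for transfer RNA and copies of the B2 repeat, a short interspersed element of rodents that carries a CTCF motif in some of its copies. Olfactory receptor genes lie in large clusters of tandem copies that are packed into heterochromatin in these neurons.

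The 9 stretches of 40 bases shown first hold the match to the core consensus of CTCF that lies nearest to the midpoint, at 6 of the 10 promoter boundaries with the highest scores (the other 4 had no match within 10 kb) and at 3 boundaries beside transcription factor genes of olfactory neurons. They are given 5′ to 3′ on the strand of the match in GRCm38, and the capitals mark the 12 letters of the core match. The last letters of the Sfi1, Eif1, Trrap, Rps23 and Ebf3 stretches run on alike, and these 5 matches lie in repeats masked in the reference and hold the letters of the B2 repeat (1 fixed spelling of the core, then NNCNGAT). The Pdcl match also lies in a masked repeat and has the same core spelling, but not the letters that follow it in B2.
Sfi1, chr11:3197411-3197450, minus strand: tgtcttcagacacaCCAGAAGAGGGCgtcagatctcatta
Pdcl, chr2:37352546-37352585, plus strand: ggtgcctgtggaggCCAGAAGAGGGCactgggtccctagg
Eif1, chr11:100323361-100323400, minus strand: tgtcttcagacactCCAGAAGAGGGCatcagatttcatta
Trrap, chr5:144764964-144765003, minus strand: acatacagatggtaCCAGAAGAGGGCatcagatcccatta
Rps23, chr13:90921731-90921770, minus strand: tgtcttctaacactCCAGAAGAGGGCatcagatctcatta
Gm37419 and Bcl6, chr16:23984349-23984388, plus strand: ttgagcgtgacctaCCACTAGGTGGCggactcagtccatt
Ebf3, chr7:137325993-137326032, plus strand: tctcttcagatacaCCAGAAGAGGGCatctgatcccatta
Emx2, chr19:59461613-59461652, minus strand: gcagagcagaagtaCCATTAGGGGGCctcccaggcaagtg
Ebf1, chr11:44598173-44598212, minus strand: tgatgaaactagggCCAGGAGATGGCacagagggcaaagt

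The sequences between the start sites of 4 divergent gene pairs, and the 150 bases upstream of 3 single genes, are shown as examples of the genes described below, among them 3 of the 5 divergent pairs with the highest scores. Pairs are given on the plus strand, from the minus-strand gene to the plus-strand gene, and single promoters on the strand of the gene, with the TSS just after the last letter. Capitals mark matches to the promoter motifs YY1 (AANATGGCG), NRF1, ETS (CCGGAAGT) and NFY (CCAATCA), on either strand.
Polr3a and Rps24, chr14:24487059-24487124, plus strand: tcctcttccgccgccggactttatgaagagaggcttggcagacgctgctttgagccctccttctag
Mepce and Zcwpw1, chr5:137787656-137787797, plus strand: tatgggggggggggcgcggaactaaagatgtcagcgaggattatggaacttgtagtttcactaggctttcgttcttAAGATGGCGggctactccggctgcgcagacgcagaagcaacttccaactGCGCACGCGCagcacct
Ptcd2 and Mrps27, chr13:99344706-99344785, plus strand: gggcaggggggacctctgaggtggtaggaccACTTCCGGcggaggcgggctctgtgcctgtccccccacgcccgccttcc
Mrps12 and Sars2, chr7:28741821-28741991, plus strand: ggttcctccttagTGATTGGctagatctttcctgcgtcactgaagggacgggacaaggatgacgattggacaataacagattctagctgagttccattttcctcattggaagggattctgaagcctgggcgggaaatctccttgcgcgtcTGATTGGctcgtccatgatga
Eif1 promoter, chr11:100319735-100319884, plus strand: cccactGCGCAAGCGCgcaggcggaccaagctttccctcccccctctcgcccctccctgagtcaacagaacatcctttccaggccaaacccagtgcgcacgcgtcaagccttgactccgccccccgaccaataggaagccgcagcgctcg
Psmd7 promoter, chr8:107588465-107588614, minus strand: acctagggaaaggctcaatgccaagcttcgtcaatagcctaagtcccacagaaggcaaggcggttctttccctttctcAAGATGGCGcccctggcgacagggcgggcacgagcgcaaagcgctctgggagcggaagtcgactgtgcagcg
Rps23 promoter, chr13:90922808-90922957, plus strand: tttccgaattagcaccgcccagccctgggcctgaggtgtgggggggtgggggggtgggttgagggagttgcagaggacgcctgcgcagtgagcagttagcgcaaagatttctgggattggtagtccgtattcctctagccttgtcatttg

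The deposited list gives each boundary a class, Strong or Weak, and a score with no stated unit. The class splits the boundaries at a score of 0.5 (the highest Weak score was 0.4996 and the lowest Strong score 0.5002). Of the promoter boundaries 1267, or 66.5% (95% interval 64.3 to 68.6), were Strong, against 54.6% of all autosomal boundaries and 50.4% (49 to 51.7) of those away from promoters. Away from promoters, 56.0% of the boundaries inside genes and 47.2% of those outside genes were Strong. Intervals here and below are exact binomial ones for shares, cover counting error only and treat boundaries or genes as independent, and no interval stands for the spread between animals.

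The median score of promoter boundaries was 0.704, with quartiles at 0.398 and 1.11 and a highest value of 4.03. Boundaries inside genes but away from promoters had a median of 0.573, and those outside genes one of 0.462. The higher median at promoters and the larger share of Strong boundaries were each seen on 19 of 19 autosomes. Per autosome the medians differed by 0.186 ± 0.0806 (SD, n = 19 autosomes), from 0.0574 on chromosome 3 to 0.371 on chromosome 12. Chromosomes of 1 map are not replicates of the condition, so this spread describes positions along the genome. Among Strong boundaries alone the medians were 0.954 at promoters and 0.929 elsewhere, so that the groups differed mainly in how many low scores they held.

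**Figure D1:**
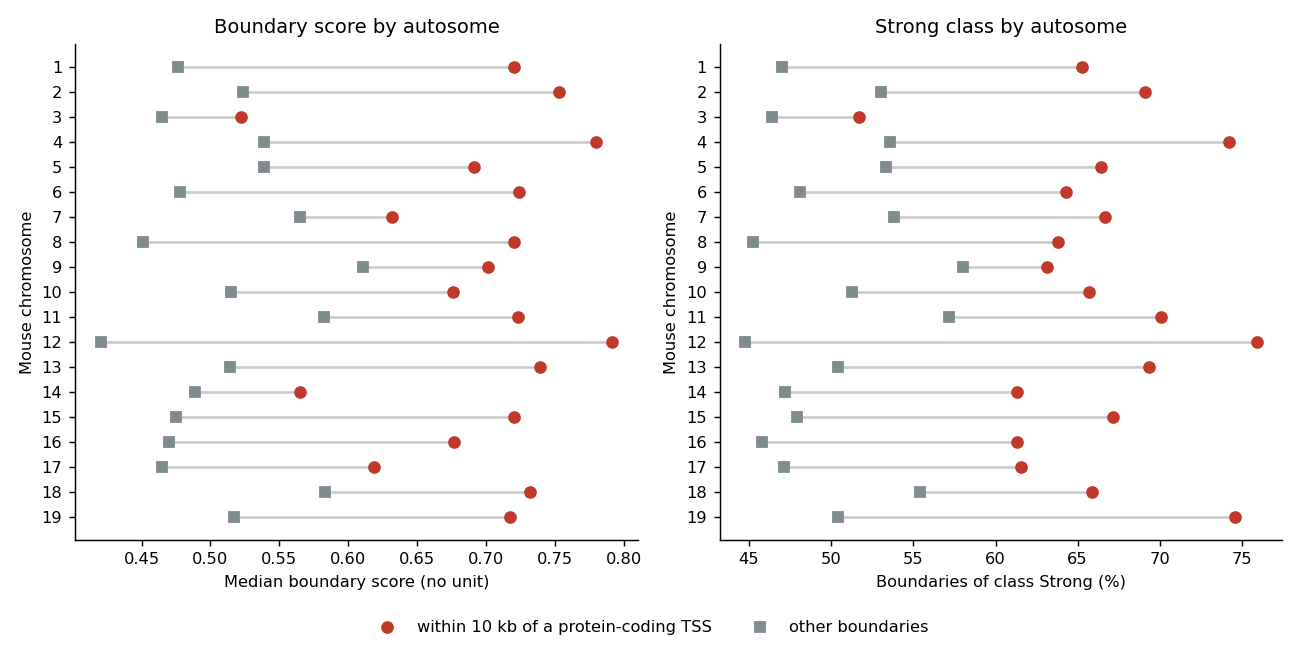
Median boundary score (left, no unit) and share of Strong boundaries (right, in percent) for each of the 19 autosomes, with circles for boundaries within 10 kb of a protein-coding TSS and squares for the other boundaries. The circle lies to the right of the square on every autosome in both panels, with the smallest gap in median score on chromosome 3 and the largest on chromosome 12.

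Ranked by score in 5 equal groups, the share of boundaries at a promoter was 15.4%, 23.5%, 27.8%, 34.0% and 32.3% from the lowest to the highest group. The share thus grew over the lower 4 groups and was no larger in the highest. Of the promoter boundaries 225, or 11.8%, were among the 10% of autosomal boundaries with the highest scores (1.52 and above), against 9.35% of the others. Promoter boundaries made up 15.1% of the boundaries of chromosome 18 and 39.2% of those of gene-rich chromosome 11. The neighbours of a promoter boundary were closer, at a median of 225 kb against 280 kb for other boundaries. This spacing differed with the GC content of the surrounding 20 kb. Below 40% GC the medians were 300 and 360 kb, and at 40 to 45% 235 and 280 kb. At 45 to 50% they were 215 and 230 kb, and at 50% or more 190 kb in both groups.

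Promoters lie in DNA rich in G and C, and the score moved with the composition of the surrounding 20 kb, whose median GC content was 45.4% at promoter boundaries and 42.1% at the others. Below 40% GC the 102 promoter boundaries had a median score of 0.449 and the 1641 others one of 0.326. Between 40 and 45% GC the medians were 0.700 for 772 promoter boundaries and 0.590 for 2230 others. Between 45 and 50% GC they were 0.732 and 0.699, and at 50% or more 0.665 and 0.690. The difference between promoter and other boundaries was thus found below 45% GC, and above it the intervals of the medians overlapped. The sites of DpnII, which set where Hi-C fragments end, numbered 49 per 20 kb at the median in both groups.

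**Figure D2:**
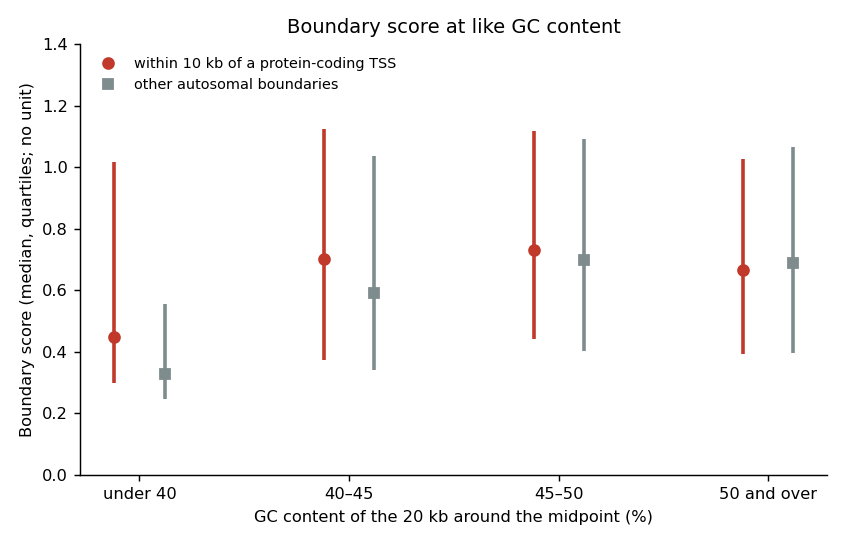
Boundary score (no unit) by the GC content of the 20 kb around the midpoint, with circles for promoter boundaries, squares for other autosomal boundaries and bars from the lower to the upper quartile. The circle stands well above the square in the lower 2 classes (0.449 against 0.326 and 0.700 against 0.590), and the symbols nearly coincide in the upper 2.

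The promoter boundary with the highest score, 4.03, lay at chr11:3195001-3200000 between Sfi1, a centrosomal protein gene, and Eif4enif1, which encodes the transporter of the cap-binding factor eIF4E. It is the first boundary of its chromosome and lies 97.5 kb from a gap in the assembly, and the part of the gap in the score was not tested. Pdcl, a chaperone gene for G protein subunits, came next at 3.42, and Eif1, which helps ribosomes choose the start codon, had 3.20. Trrap, a scaffold of histone acetyltransferase complexes, stood at 3.16 with its TSS 0.232 kb from the midpoint, and Tmem130 also starts at this boundary.

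The olfactory receptor gene Olfr220 followed at 3.10, and Rps23, a protein of the small ribosomal subunit, at 3.07. The remaining 4 were Fstl5 (3.05), a gene for a follistatin-like secreted protein, Rxylt1 (2.90), an enzyme that glycosylates dystroglycan, the zinc finger gene Zfp202 (2.89), and the predicted gene Gm37419 with the repressor gene Bcl6 (2.86). Olfr220, Fstl5, Rxylt1 and Zfp202 are those with no core match to CTCF within 10 kb. At the lower end Gpatch8, 4933415F23Rik and Slc12a8 each had 0.201, just above the lowest score in the list.

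The score had no steady relation to the distance of the TSS within 10 kb. The median was 0.714 for 727 boundaries with a TSS inside the bin (up to 2.5 kb), 0.641 for 571 at 2.5 to 5 kb, 0.736 for 353 at 5 to 7.5 kb and 0.654 for 255 at 7.5 to 10 kb. Just inside the limit, at 9 to 10 kb, 107 boundaries had a median of 0.595, and just outside, at 10 to 11 kb, 94 had one of 0.741. Nearest to the limit were Ngb, the neuroglobin gene (9.96 kb, score 0.427), and Dpys (9.97 kb, 0.905) on the inside, and Arg1 (10.02 kb, 0.578) and Aldh1a3 (10.02 kb, 0.675) on the outside. The closest Strong boundaries were those of Aipl1 (0.009 kb, score 0.766), Fam92b (0.034 kb, 0.811) and Tmed7 (0.035 kb, 0.958).

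The TSS itself was most frequent in the middle of a boundary. Per 1000 autosomal boundaries and kb, 23.9 TSSs lay within 1 kb of the midpoint, 19.5 at 2.5 to 5 kb and 11 at 7.5 to 10 kb. At 50 to 100 kb the density was 11.1, so the excess ended within the 10 kb of the rule.

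Gene direction was read at the 1447 boundaries with a single TSS within 10 kb. The gene body led away from the midpoint at 789 of them, 54.5% (51.9 to 57.1), and ran across or towards it at 658. By side and strand, 403 lay left on the minus strand and 386 right on the plus strand (away), against 319 left on the plus strand and 339 right on the minus strand (across). The share of genes leading away was above 50% on 15 of 19 autosomes.

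Over all TSSs near a boundary this share was 48.5% (43.1 to 54.0) within 1 kb of the midpoint, 54.3% at 2.5 to 5 kb and 60.5% (55.5 to 65.4) at 7.5 to 10 kb. It was 56.4% at 20 to 30 kb and 49% at 50 to 100 kb. Genes starting near a boundary but outside its bin therefore more often pointed out of it than into it. A TSS up to 2.5 kb from the midpoint lies inside the 5 kb bin, so its side of the boundary is less certain. At 1 to 2.5 kb the share was 53.1% (48.6 to 57.5). The median score was 0.723 where the gene led away and 0.651 where it ran across, and the former was higher on 11 of 19 autosomes, so this difference was not steady over the genome. The midpoint lay in the body of the nearest gene at 819 promoter boundaries and in any protein-coding gene at 1003, or 52.6%.

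**Figure D3:**
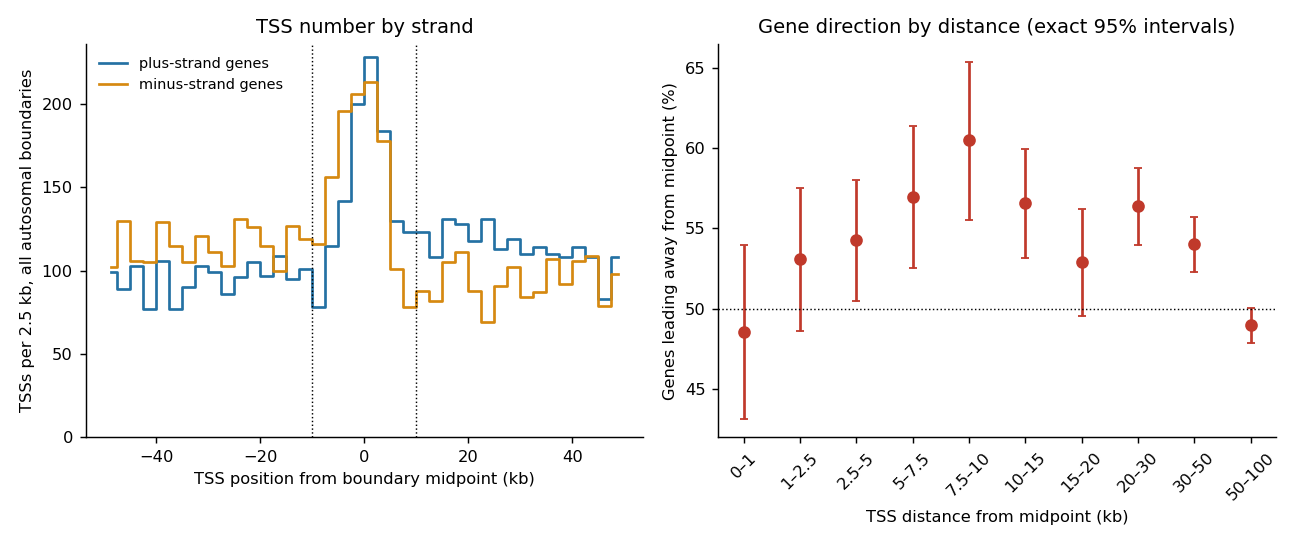
Left, number of protein-coding TSSs per 2.5 kb against the distance from the boundary midpoint in kb, summed over all autosomal boundaries, for plus-strand and minus-strand genes. Right, share of genes whose body leads away from the midpoint by TSS distance, with exact 95% binomial intervals and a dotted line at 50%; the share is 48.5% in the nearest class and 60.5% at 7.5 to 10 kb.

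Most promoter boundaries, 1447, had 1 TSS, 391 had 2, 60 had 3 and 8 had 4 or more. The median score was 0.698 (0.652 to 0.729) with 1 TSS, 0.716 (0.643 to 0.766) with 2 and 0.759 (0.533 to 0.937) with 3. The 8 with 4 or more had a median of 1.09 (0.370 to 2.05), and all these intervals overlap. The most crowded were near Rpl3l (score 1.56), where the ring finger gene Rnf151, the ribosomal gene Rps2, Ndufb10 of respiratory complex I and the methionine sulfoxide reductase gene Msrb1 also start, near Rxrb, a retinoid receptor gene (0.724), and near the chaperone-linked ubiquitin ligase gene Stub1 (0.658). A boundary at the edge of the large histone cluster had the TSSs of Hist1h4a, Hist1h3a, Hist1h1a and Trim38 and a score of 2.05. The predicted gene AL731706.2 marked another with 4 TSSs, among them those of Mkks and Slx4ip, at 1.41.

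Pairs of genes that start back to back within 1 kb, which share a promoter region, were found at 125 promoter boundaries. They held 127 of the 735 autosomal pairs, and in 108 of the 127 both promoters were rich in CpG. Genes in such pairs made up 10.4% of the genes at boundaries, against 6.97% of all genes. Of genes in a divergent pair 17.5% (15.6 to 19.6) had a boundary within 10 kb, against 11.3% (10.9 to 11.8) of other genes. Among genes with CpG-rich promoters the shares were 18.9% (16.7 to 21.2) and 15.2% (14.4 to 16.0). The median gap between the start sites was 125 bases at boundaries and 128 over all pairs. In 1 pair the start sites lay on either side of a midpoint, which gaps this short make rare wherever the pairs lie.

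Boundaries with a divergent pair had a median score of 0.774, and 97 of 125, or 77.6% (69.3 to 84.6), were Strong. Boundaries with at least 2 TSSs but no such pair had 0.669 and 65.9% (60.5 to 70.9). The highest pair, at 2.79, was Polr3a, the largest subunit of RNA polymerase III, with Rps24, a ribosomal protein gene, whose start sites lie 67 bases apart. It was followed by Cfap57 and Ebna1bp2 (2.45), genes of cilia and of ribosome assembly, and by Mepce, an enzyme that caps the 7SK RNA, with Zcwpw1 (2.17). Rer1 with Morn1 and Ptcd2 with Mrps27, both of the latter acting on mitochondrial RNA or ribosomes, had 1.90 each.

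A promoter was called CpG-rich when the 1 kb around the TSS had at least 50% GC and an observed to expected CpG ratio of at least 0.6. The gene nearest to the midpoint had such a promoter at 1160 promoter boundaries, 60.9% (58.6 to 63.1), against 45.7% of all genes. Read from the genes, 15.7% (14.9 to 16.4) of CpG-rich and 8.46% (7.95 to 8.98) of CpG-poor ones had a boundary within 10 kb, and the former share was the larger on 19 of 19 autosomes. The shares were also compared at matched composition. Below 40% GC in the surrounding 20 kb, 9.27% (6.47 to 12.8) of CpG-rich and 3.89% (3.16 to 4.74) of CpG-poor genes had a boundary. Between 40 and 45% GC in the surrounding 20 kb the shares were 16.7% and 7.89%, between 45 and 50% they were 16.0% and 10.7%, and at 50% or more 13.9% (12.3 to 15.6) and 12% (10.4 to 13.6), with overlapping intervals. The median score was 0.728 beside CpG-rich and 0.628 beside CpG-poor promoters, and higher beside the former on 16 of 19 autosomes. Genes at boundaries were of ordinary length, with a median of 18.3 kb against 17.5 kb for other genes.

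The genes were then grouped by function, by symbol, with 15 lists of broadly used machinery (561 genes) and 14 lists of families that few tissues use (2150 genes). Of the broadly used genes 135, or 24.1% (20.6 to 27.8), had a boundary within 10 kb. Of the restricted genes 110, or 5.12% (4.22 to 6.13), had one, and of genes in neither kind of list 12.2%, around the background of 11.7%. Counted the other way, broadly used genes made up 5.52% of the genes at boundaries and 2.7% of all genes, and restricted ones 4.50% and 10.3%. Among CpG-rich promoters alone the broadly used genes had 24.8% (20.9 to 29.1) and the unlisted ones 15.3% (14.6 to 16.1). At 40 to 45% GC the broadly used genes had 25.1% and the unlisted ones 12.2%, and at 45 to 50% 25.7% and 13.3%. At 50% GC or more, with 86 broadly used genes, the shares were 18.6% (11 to 28.4) and 12.9%. The high share of broadly used genes was thus seen within CpG-rich promoters and within these classes of composition, although the interval in the last class includes the share of unlisted genes.

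Among 4 lists of genes for making proteins the share ranged from 16.2% to 37.5%, but their intervals all overlap. Of 72 cytosolic ribosomal protein genes 27, or 37.5% (26.4 to 49.7), had a boundary within 10 kb. Rps23 (3.07), Rps24 (2.79) and Rps3 (1.93) had the highest scores, and the median over these boundaries was 0.687. Among the other members of the list with a boundary the scores ranged down to 0.273 at Rps6, so that a ribosomal gene did not imply a high score. Of 52 genes listed by symbol under translation initiation, 15 had a boundary, or 28.8% (17.1 to 43.1). The highest scores were at Eif4enif1 (4.03, the transporter gene described above, taken in by its symbol), Eif1 (3.20) and Eif3f (1.79). Mitochondrial ribosomal proteins counted 17 of 78, or 21.8% (13.2 to 32.6), led by Mrps14 (2.47), Mrps27 (1.90) and Mrps12 (1.69), the last of which shares its promoter region with the mitochondrial seryl-tRNA synthetase gene Sars2. The tRNA synthetases, which charge transfer RNAs, counted 6 of 37, or 16.2% (6.19 to 32.0), led by Nars2 (1.79), Sars2 and Farsb (1.01). The intervals of the first 3 of these 4 lists lie above the background of 11.7%, and that of the synthetases includes it.

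The proteasome, the protease complex that removes tagged proteins, had the largest share of any list, 13 of 33 genes or 39.4% (22.9 to 57.9). The boundaries at Psmd7 (2.65), Psmd6 (2.42) and Psmc1 (2.17), all parts of its regulatory particle, scored highest. The median of the 13 boundaries was 1.20, against 0.704 for all promoter boundaries, and their scores ranged from 0.202 to 2.65. At 12 of 48 splicing factor genes the median was 1.23 (scores from 0.330 to 1.89), led by Sf3b5 (1.89), Snrpg (1.67) and Snrpd3 (1.67). Of 46 genes of Mediator and TFIID, which bring RNA polymerase II to promoters, 8 had a boundary. The median there was 0.283 (scores from 0.205 to 1.65), with only Med31 (1.65), Taf9 (0.828) and Med6 (0.633) Strong. These medians rest on few boundaries each and are given without intervals, so differences in score between the lists are not resolved. RNA polymerase subunits counted 7 of 28, led by Polr3a, Polr3d (1.11) and Polr3e (0.595). Broad use of a gene was thus no uniform mark of a high score.

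The smaller lists of broad function had 6 of 23 genes of mitochondrial import led by Tomm7 (1.77), 4 of 20 nucleoporins led by Nup160 (1.39) and 2 of 10 exosome genes led by Exosc2 (1.27). Genes with the symbol prefix of ubiquitin-conjugating enzymes had 6 of 34, led by Ube2cbp (1.5), which encodes a protein that binds such an enzyme, and Ube2b (1.08), chaperonins and heat shock proteins 4 of 23, led by Cct4 (1.63), and the vacuolar ATPase 4 of 23, led by Atp6v1d (1.48). Respiratory complex I had the lowest share of the broad lists, 4 of 34 genes or 11.8% (3.30 to 27.5). The intervals of all the lists in this paragraph, which are small, include the background of 11.7%. Its 4 boundaries, at Ndufb10 (1.56), Ndufb9 (1.30), Ndufa12 (0.759) and Ndufb2 (0.712), were all Strong.

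Families of restricted use had a lower share than unlisted genes, but most of their genes, 1282 of 2150, lie in DNA below 40% GC, where 4.58% of all genes had a boundary. There the restricted share was 3.67% (2.71 to 4.85) and the unlisted one 5.28% (4.2 to 6.55), with overlapping intervals. At 40 to 45% GC the shares were 6.80% (4.78 to 9.33) and 12.2%, at 45 to 50% 7.35% (4.41 to 11.4) and 13.3%, and at 50% or more 9.26% (4.53 to 16.4) and 12.9%. The unlisted share thus lay above the restricted interval in each class below 50% GC, although below 40% GC the intervals of both overlapped. Of 1128 olfactory receptor genes 57, or 5.05% (3.85 to 6.5), lay within 10 kb of 53 boundaries, whose median score was 0.398. Olfr220, Olfr543 and Olfr544 (the latter pair at 1 boundary, 2.54) led the list, and Olfr17, which the sorted cells express, was not in it. Vomeronasal receptors counted 11 of 327, led by Vmn1r30 (1.77), keratins and their associated proteins 3 of 110, led by Krtap28-10 (0.563), and the clustered protocadherins 0 of 55, with an exact upper limit of 6.49%. Serpins had 3 of 60 (interval 1.04 to 13.9%), none Strong, and chemokines 1 of 36 (0.0703 to 14.5%), Ccl17 (0.360). The intervals of serpins and chemokines include the background of 11.7%. Leaving out olfactory and vomeronasal receptors, the restricted share was 6.04% (4.39 to 8.08), so it did not rest on these families.

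The intervals of the restricted lists named next include the background of 11.7%. Developmental transcription factors had 11 of 125, led by Dlx3 (1.27), Pou2f1 (1.07, a factor found in most tissues that was taken in by its symbol) and Sox10 (0.870), and Hox genes 4 of 39, led by Hoxd13 and Hoxd12 at 1 boundary (1.04). Crystallins, the proteins of the lens, counted 4 of 19 or 21.1% (6.05 to 45.6), led by Cryaa (1.81). Boundaries with a TSS of a restricted gene had a median score of 0.433, and 42.7% (33.0 to 52.8) were Strong, against 0.797 and 73.1% (64.6 to 80.5) with a TSS of a broadly used gene. The former lay in DNA of lower GC content, with a median of 40.4% against 45.5%, and 44.7% against 85.4% had a CTCF core match, and the part of these features in the difference was not tested.

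**Figure D4:**
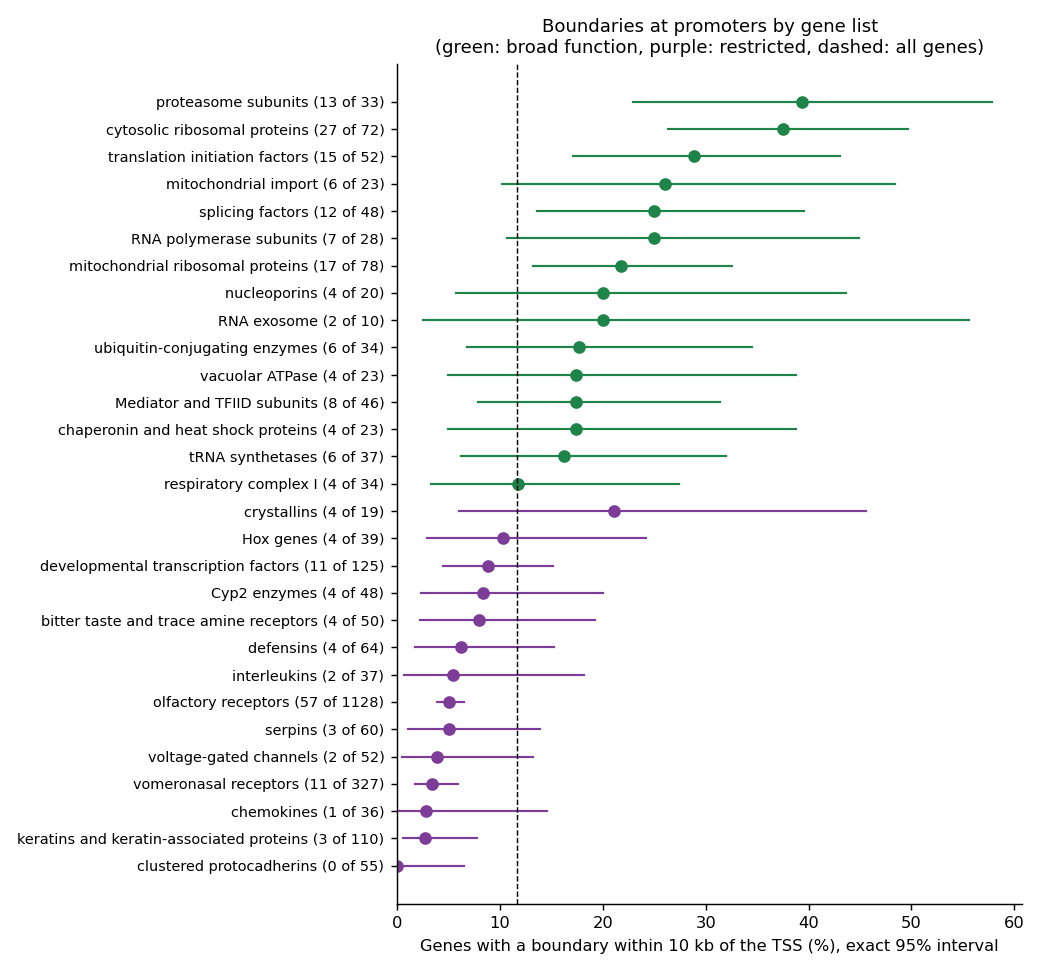
Share of the genes of each of the 15 broad and 14 restricted lists with a boundary within 10 kb of the TSS, in percent, with exact 95% binomial intervals, the counts beside each name and a dashed line at the share of all autosomal protein-coding genes (11.7%). Proteasome subunits (39.4%) and cytosolic ribosomal proteins (37.5%) lie farthest to the right, and clustered protocadherins (0 of 55), keratins and vomeronasal receptors lie to the left of the line.

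Of 40 annotated autosomal genes known for their part in olfactory neurons, 8 had a boundary at the promoter, or 20% (9.05 to 35.6), an interval that includes the background of 11.7%. The highest scores were at the transcription factor genes Ebf3 (2.66), Emx2 (2.5) and Ebf1 (2.31). Ebf3 and Ebf1 are of the family that binds enhancers of receptor genes, and Emx2 is a homeobox factor needed for the expression of many receptors. Their TSSs lay outside the bin, 8.055 kb (Ebf3), 5.872 kb (Emx2) and 9.817 kb (Ebf1) from the midpoint. Gng13, a G protein subunit of these neurons, had 1.03, the axon guidance receptor gene Plxna1 0.633 and Umodl1 0.619. Atf5, a factor of the response that stabilises receptor choice, had 0.407 and the adhesion gene Ncam1 0.234, both Weak. The other 32, among them Omp, Adcy3, Lhx2 and Ldb1, had no autosomal boundary within 10 kb.

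Among 16 marker genes of other cells of the epithelium, 3 had a boundary at the promoter, or 18.75% (4.05 to 45.6). This interval includes the background of 11.7%. C1qa and C1qc of complement, made by macrophages, shared 1 with a score of 0.825, and the haemoglobin gene Hbb-bs had 0.700. Since a boundary is no measure of expression, these values do not report the makeup of the sort. Of 27 genes of architectural and heterochromatin proteins 4 had one, namely the histone methyltransferase gene Ehmt1 (0.855), the cohesin loaders Nipbl (0.838) and Mau2 (0.431) and the cohesin regulator Pds5a (0.281). Their share of 14.8% (4.19 to 33.7) was near the background.

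Matches to the core consensus of CTCF, found by exact search of both strands, were present within 10 kb of 1385 promoter boundaries, 72.7% (70.6 to 74.7), against 59% of all autosomal boundaries and 54.0% (52.7 to 55.4) of those away from promoters. The share was higher at promoters on 19 of 19 autosomes. A match is a run of letters and not measured binding. Many of these matches had the letters of the B2 repeat shown above. This class was defined after such copies were seen among the sequences, and it covers 42.6% of the matches at promoter boundaries, 32.2% of those at other boundaries and 37.1% of those on all autosomes.

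A B2-type match lay within 10 kb of 839 promoter boundaries, 44.0% (41.8 to 46.3), and of 22.8% (21.7 to 23.9) of the others, with 28.4% over all. Matches of other letters were found at 58.0% and 45.4%, with 48.8% over all, and matches outside masked repeats at 35.1% and 30.2%. With a stricter consensus, 9.55% of whose matches lie in masked repeats, the shares were 15.2% (13.6 to 16.9) and 14.1% (13.2 to 15.1), with 14.4% over all. The surplus of CTCF letters at promoter boundaries was therefore largest for copies of the repeat and had overlapping intervals for the stricter consensus.

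These shares differed with composition. At 45 to 50% GC the core match was found at 81.1% of promoter boundaries and 79.2% of others, the B2-type match at 53.5% and 39.4%, and the stricter match at 17.0% and 26.4%. At 50% GC or more the stricter match was found at 30.5% and 39.6%, and at 40 to 45% at 9.20% and 12.7%. In the 3 classes from 40% GC upwards, promoter boundaries thus had the B2-type letters more often and the stricter letters less often than other boundaries. No test of these differences was made.

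**Figure D5:**
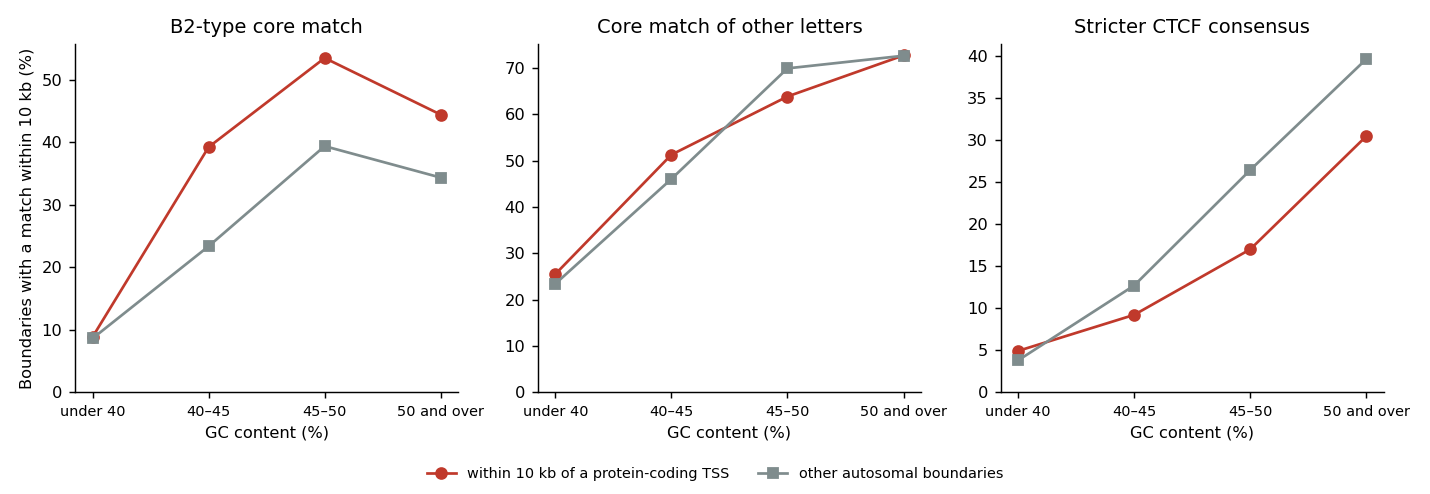
Share of boundaries with a sequence match to CTCF within 10 kb of the midpoint, in percent, by GC content of the surrounding 20 kb, with circles for promoter boundaries and squares for other autosomal boundaries. The panels show B2-type core matches, core matches of other letters and the stricter consensus. At 45 to 50% GC promoter boundaries are higher for B2-type matches (53.5% against 39.4%). They are lower there for matches of other letters (63.9% against 70.0%) and for the stricter consensus (17.0% against 26.4%).

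Promoters as such lie near B2 copies, so genes with and without a boundary were also set side by side. Of the TSSs near a boundary 45% (43 to 47) had a B2-type match within 10 kb, against 34.6% (33.9 to 35.3) of the other TSSs. A stricter match was found at 13.4% (12.1 to 14.8) and 7.65% (7.27 to 8.05). Both kinds were thus more frequent at promoters with a boundary, and in ratio the stricter one more so. For genes in DNA of 45 to 50% GC the B2-type shares were 52.8% and 46.6%, and the stricter ones 14.7% and 9.89%.

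The score also differed with the match. Promoter boundaries with a core match had a median of 0.724 and those without one 0.602, and the former was higher on 18 of 19 autosomes. At other boundaries the medians were 0.644 and 0.391. The 521 promoter boundaries with no core match thus had a median close to that of other boundaries that had one. Promoter boundaries with B2-type matches alone had 0.774 (279 boundaries), those with other letters alone 0.733 (546), and those with a stricter match 0.853 (289). Beside a CpG-rich promoter the median was 0.749 with and 0.671 without a core match, and beside a CpG-poor one 0.659 and 0.520.

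Motif direction was read as towards or away from the midpoint. Stricter matches pointed away, into the adjoining domain, in 70.1% (64.7 to 75.1) of 314 cases at promoter boundaries and in 63.1% (59.7 to 66.3) of 850 at others. For core matches the shares were 57.1% and 54.1%, and for B2-type ones 56.5% (53.8 to 59.1) and 51.1% (48.8 to 53.5). The stretches shown above hold both directions. Those of Sfi1, Pdcl, Trrap, Gm37419, Ebf3 and Ebf1 point away and those of Eif1, Rps23 and Emx2 point towards the midpoint. The matches of Sfi1, Pdcl and Gm37419 lie inside the 5 kb bin, so their side of the boundary is less certain. The direction shares given here also count matches inside the bin.

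The place of the match relative to the gene was read at the 399 promoter boundaries with 1 TSS and 1 core match. The match lay on the same side of the midpoint as the TSS in 200, or 50.1%, and within 1 kb of the TSS in 21. It lay upstream of the TSS in 240, 60.2% (55.2 to 65.0), where 52.2% of the window was upstream. Its strand was that of the gene in 205, or 51.4%. Core matches therefore lay upstream more often than the window gives by length, and neither their side nor their strand followed the gene.

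The letters of 9 promoter motifs were searched on both strands from 250 bases before to 50 after the TSS of the nearest gene, and overlaps between motifs were not removed. NRF1, a factor of genes for mitochondria and cell growth, had a match in 9.76% (8.46 to 11.2) of these promoters against 6.17% of all protein-coding promoters. The ETS motif (CCGGAAGT) had 6.87% against 4.80%, YY1 (AANATGGCG) 4.04% against 2.90%, the cyclic AMP element (TGACGTCA) 3.57% against 2.43%, and the ZNF143 motif 3.41% against 2.68%. The GC box of SP1 (GGGGCGGGG) had 17.9% against 14.8%, the CCAAT box of NFY (CCAATCA) 9.60% against 8.62% and the E-box (CACGTG) 8.71% against 7.82%. The TATA box (TATAAA) alone was less frequent at boundaries, with 9.23% (7.97 to 10.6) against 12.7%.

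Promoter composition moved with these shares. Within CpG-rich promoters NRF1 letters were found in 14.8% (12.8 to 17.0) at boundaries and in 11.6% elsewhere, those of ETS in 9.83% (8.17 to 11.7) and 8.13%, and the cyclic AMP element in 5.09% (3.89 to 6.51) and 3.68%. The TATA box was found in 5.17% (3.97 to 6.61) and 5.88%, the YY1 letters in 5.86% (4.58 to 7.37) and 4.99%, and those of ZNF143 in 4.48% (3.37 to 5.84) and 3.88%. The NFY letters were found in 11.6% (9.85 to 13.6) and 10.7%, those of SP1 in 25.5% (23.0 to 28.1) and 26.1%, and those of the E-box in 10.6% (8.89 to 12.5) and 11.3%. For NRF1, ETS and the cyclic AMP element the share elsewhere lay below the interval at boundaries, and for the other 6 motifs within it. In the sequences printed above NRF1 letters stand in the promoter of Eif1 and between Mepce and Zcwpw1, YY1 letters in the promoter of Psmd7 and between Mepce and Zcwpw1, ETS letters between Ptcd2 and Mrps27, and NFY letters on both sides of the region between Mrps12 and Sars2.

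Noncoding genes, which the rule did not use, were also frequent at promoter boundaries. A gene for transfer RNA lay within 10 kb of 16 promoter boundaries, 0.839% (0.481 to 1.36), and of 10 others, 0.190% (0.0912 to 0.349), with 0.363% over all autosomal boundaries. The TSS of a long noncoding RNA gene lay within 10 kb of 344 promoter boundaries, 18% (16.3 to 19.8), and of 6.67% (6.01 to 7.38) of the others, with 9.69% over all. The median score of promoter boundaries was 0.690 (0.619 to 0.750) with and 0.705 without a long noncoding TSS. It was 0.592 (0.5 to 0.990) with and 0.705 without a transfer RNA gene, while 75% (47.6 to 92.7) and 66.4% were Strong, so the 16 boundaries with such a gene show no clear direction. At other boundaries a long noncoding TSS went with a median of 0.580, above the 0.506 of all of them. Both kinds of gene tend to lie near protein-coding promoters, and the part of that in these shares was not tested.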

How the data were processed

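The deposited list, made by the authors from the combined contacts of both replicates on GRCm38 (per the submitters' processing notes and the labels), gives each boundary a bin, a class and a score. For the caller, the aligner, their settings and the depth, nothing was given in the sources used here. A low map quality or a strain difference from the reference can move or hide a boundary.

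TSSs came from GENCODE M21, transfer RNA genes from the RefSeq annotation, and sequences from the RefSeq copy of GRCm38, the build of the list. Genes were counted by identifier, as 27 symbols are duplicated. Positions are 1-based. Counts, medians and exact binomial intervals were computed with Python 3.11.15, pandas 2.3.3 and scipy 1.17.1, with functions tested on simulated data. No p-values were computed.

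The members and lists were chosen with earlier results of these data known. Named genes are the 10 highest and 3 lowest scores, the 5 highest divergent pairs, the 5 boundaries with most TSSs, the 3 closest Strong ones, those nearest to 10 kb, up to 3 per functional list by score, and all of the neuron, other-cell and architectural lists. Rps6, the 4 listed genes without a boundary (Omp, Adcy3, Lhx2 and Ldb1) and Olfr17 were added after their values were seen. Alternatives were 5 or 25 kb, all transcript starts, Strong boundaries alone, no boundaries near assembly gaps, other motif, pair and CpG rules, and each autosome left out.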

Additional observations from a re-analysis of the deposited data

How the results depend on the processing

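Of 75 values recomputed under other settings, 58 were close to the reported ones (shares and medians within their counting interval, numbers of boundaries within 1.5 times), among them all those with 1 autosome left out, with every transcript start in place of the gene end, or without boundaries near assembly gaps. With Strong boundaries alone the Strong share has no value. With a distance of 25 kb the promoter boundaries numbered 3178, the share of genes leading away was 58.0%, CpG-rich promoters made up 57.4%, broadly used genes 4.40% and restricted genes 5.63%, and with 5 kb the promoter boundaries numbered 1298 and CpG-rich promoters made up 63.4%. With Strong boundaries alone, 1267 remained, with a median score of 0.954 (0.931 within 2.5 kb of a TSS), 63.4% CpG-rich promoters, 76.2% with a CTCF core match and 2.91% restricted genes. Pairs up to 5 kb apart were found at 9.34% of promoter boundaries, and a stricter CpG rule gave 48.8% against 36.0% of all genes. The CTCF share was 15.2% with the stricter consensus and, in alternatives chosen after seeing the data, 58.0% without the B2 letters and 35.1% outside masked repeats. Some of these shifts follow from the settings. Strong boundaries alone must be fewer with higher medians, and a wider distance or pair limit must take in more. Narrower CTCF or CpG rules must give lower shares. The cause of the other shifts was not tested. No paired analysis was possible because both replicates form 1 group and were combined into 1 list. The depth is unknown, so the precision of a single score is not known.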
